A study of Mus musculus with 2 samples.

Results

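The genes described here are 10 transcripts of muscle wasting and of the response to glucocorticoid hormones: Fbxo32, Trim63, Pdk4, Foxo1, Foxo3, Klf15, Fkbp5, Tsc22d3, Zbtb16 and Sgk1. They were chosen because Pdk4, Fbxo32 and Trim63 stood among the largest differences between the arrays compared here, and the other 7 because they belong to the same FOXO and glucocorticoid programmes. All 10 were measured, out of 22180 genes with a name of their own on the array. The tissue was back skin of male BALB/cAJcl mice aged 7 weeks, with 1 Affymetrix Mouse Gene 2.0 ST array from a saline control and 1 from a sample given FGF18, a fibroblast growth factor. For FGF18 the course was depilation to start hair growth, 100 µg of the protein with heparin at 5 µg/µl into the peritoneum on day 6, 6 Gy of γ-rays to the whole body 24 h later, and collection of skin after another 4 h. The labels do not say whether the saline control was irradiated or given heparin, and they leave out the number of mice behind an array. No day of depilation and no time of skin collection were recorded here for the saline control. FGF18, heparin and radiation therefore cannot be told apart here, nor can any difference in depilation or timing. With 1 array per group there is no spread between animals and no test, and each comparison below is between these 2 arrays. Because the genes were picked on this same contrast, their differences are a description and support nothing by themselves.

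Glucocorticoids pass into cells and bind the glucocorticoid receptor, which moves to the nucleus and binds a palindromic DNA element, the glucocorticoid response element. FOXO transcription factors are held in the cytoplasm by the kinase AKT when insulin and growth factors are present, and enter the nucleus when that signal falls, as in fasting. In skeletal muscle both routes meet on Fbxo32 and Trim63, which encode the ubiquitin ligases atrogin-1 and MuRF1 and mark wasting muscle, and on Pdk4, whose kinase blocks entry of pyruvate into the citric acid cycle so that cells burn fat. Mouse back skin carries a sheet of skeletal muscle beneath its fat, the panniculus carnosus, so whole skin RNA holds muscle transcripts.

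Promoters were read for the letters that the receptor and the FOXO factors are known to bind. RefSeq start sites (GRCm38.p6) were at hand for 8 of the 10 genes, with 15 windows of 250 bases before a start. Fbxo32 and Zbtb16 had no entry. Each window was searched on both strands for the receptor's palindrome (AGAACA and TGTTCT with any 3 bases between, up to 1 mismatch in the 12 fixed letters), for the hexamer TGTTCT alone, which lies within the palindrome, and for the FOXO site TGTTTAC. The windows below are written 5′ to 3′ on the gene's strand, with the fixed letters of each motif match in capitals, the mismatched first base of the Trim63 palindrome included. Trim63 (chr4:134314870-134315119, + strand) and Sgk1 (chr10:21993640-21993889, + strand, 1 of 6 starts listed) are shown because they held a palindrome. Pdk4 (chr6:5496279-5496528, − strand) is shown because its difference was the largest of the 10.
Trim63: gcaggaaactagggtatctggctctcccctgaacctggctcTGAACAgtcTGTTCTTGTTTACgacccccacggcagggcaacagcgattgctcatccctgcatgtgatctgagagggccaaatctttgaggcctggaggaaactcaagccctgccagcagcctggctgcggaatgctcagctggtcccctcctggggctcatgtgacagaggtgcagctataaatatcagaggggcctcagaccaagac
Sgk1: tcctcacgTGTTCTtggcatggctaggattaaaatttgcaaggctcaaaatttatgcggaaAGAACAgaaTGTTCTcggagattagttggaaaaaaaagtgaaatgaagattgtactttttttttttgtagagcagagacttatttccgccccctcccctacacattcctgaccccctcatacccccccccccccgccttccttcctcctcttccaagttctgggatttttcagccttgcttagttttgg
Pdk4: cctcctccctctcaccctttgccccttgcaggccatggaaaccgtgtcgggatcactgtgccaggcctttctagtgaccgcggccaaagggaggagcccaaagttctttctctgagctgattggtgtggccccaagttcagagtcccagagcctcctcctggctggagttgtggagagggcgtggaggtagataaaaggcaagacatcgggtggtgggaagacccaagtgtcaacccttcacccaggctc

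In the Trim63 window the palindrome began 209 bases before the start and differed from the motif by A1T, counted from 1 at its 5′ end (the motif's base, the position, the window's base). A FOXO site began 194 bases before the start, with 0 bases between them. Of 32851 mouse windows of this length, 46 (0.140%) held the palindrome with up to 1 mismatch and 1040 (3.17%) a FOXO site, and Trim63 was the 1 window that held both. The Sgk1 window held the palindrome with no mismatch, 189 bases before that start, as did 3 of the 32851 windows (0.00913%). The hexamer was common, in 5284 windows (16.1%) and in at least 1 window of 18.2% of 27025 genes. It occurred in windows of 3 of the 8 genes, Trim63, Sgk1 and Tsc22d3. Sgk1 has 6 windows and Tsc22d3 has 3, which gives them more sequence to match than Trim63 with 1. None of the 3 motifs was found in the windows of Pdk4, Foxo1, Foxo3, Klf15 or Fkbp5. A match is a run of letters and not a measured binding site, and elements farther out were not searched.

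The muscle ligase genes and Pdk4 were much higher on the FGF18 array. Fbxo32, which encodes atrogin-1, read an RMA intensity of 63.4 in saline and of 184 with FGF18, or 2.88-fold higher. Trim63, the ligase gene that takes apart thick filament proteins, read 36.5 and 101 and was 2.71-fold higher. Pdk4 read 78.4 and 245, or 3.09-fold higher. Folds are from log2(intensity + 1). Each was above its array's median intensity (14.0 in saline and 13.8 after FGF18) on both arrays, and each gene rests on 1 transcript cluster, the array's probe set for a transcript. Ranked by difference among the 11090 genes in the brighter part by mean level (from the median of 4.15 upward), Pdk4 was in place 3, Fbxo32 in place 4 and Trim63 in place 6. Saa3, an acute-phase gene, stood just before Pdk4, and Peg3, an imprinted zinc finger gene, just after Trim63.

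**Figure D1:**
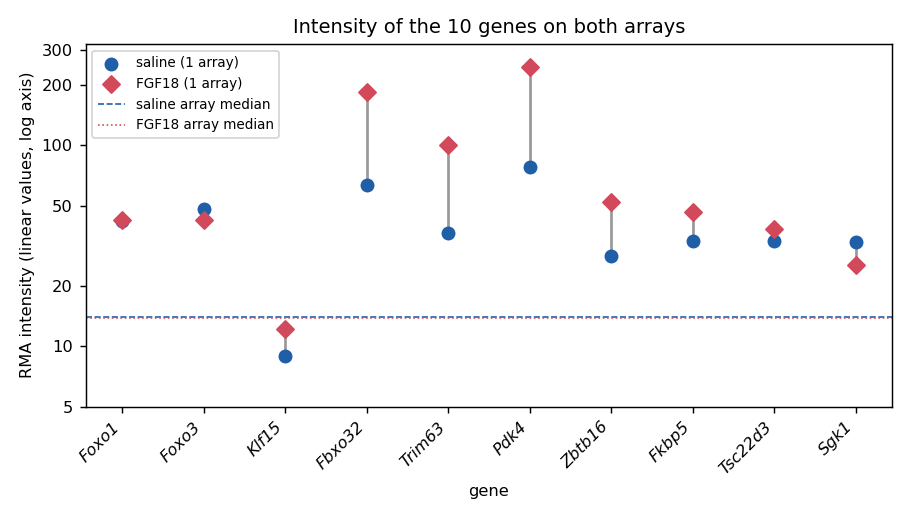
RMA intensity (linear values on a log axis) of each of the 10 genes on the saline array (circles) and the FGF18 array (diamonds), 1 array each, with dashed and dotted lines at the array medians of 14.0 and 13.8. Fbxo32, Trim63 and Pdk4 have the widest gaps, from 63.4 to 184, from 36.5 to 101 and from 78.4 to 245, and Klf15 lies below the median of both arrays.

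Foxo1 and Foxo3 differed little between the arrays. Foxo1, the FOXO factor of fasting metabolism, read 41.9 in saline and 42.3 after FGF18, a log2 difference of 0.01. Its 2 clusters lay on opposite sides, at 44.9 and 50.3 (0.16) and at 39.0 and 35.5 (-0.13), and subtracting the trend of difference on level gave -0.08. Foxo3, the FOXO factor best known for driving atrogin-1, read 48.4 and 42.7, a difference of -0.18. Among their relatives Foxo4 read 24.4 and 34.5 (0.48) and Foxo6 24.5 and 21.8 (-0.16). Transcript levels do not show where FOXO proteins sit in the cell. Klf15, a factor that glucocorticoids induce and that works with the receptor in muscle, read 8.97 and 12.1, below the median of each array, so no fold is given.

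The direct targets of the glucocorticoid receptor were split. Zbtb16, a zinc finger repressor gene that steroids induce in many tissues, read 28.1 in saline and 52.2 after FGF18 and was 1.83-fold higher, in place 74 of the ranking. Fkbp5, the receptor's own co-chaperone and feedback inhibitor, read 33.5 and 46.4, or 1.37-fold higher. Tsc22d3, whose leucine zipper protein GILZ carries part of the anti-inflammatory action, read 33.4 and 38.1, a difference of 0.18. Sgk1, a kinase gene that glucocorticoids and mineralocorticoids induce, was lower, at 32.9 and 25.3, a difference of -0.37. Sgk1 is the gene with the exact palindrome shown above and the lowest difference of the 10. As the kinase phosphorylates FOXO proteins alongside AKT, it belongs to both programmes.

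Across the 10 genes 8 were higher and 2, Foxo3 and Sgk1, were lower, and the median difference was 0.43, beside 0.00 over all 22180 genes, of which 49.5% were higher and 45.5% lower. Over the 11090 brighter genes the median was 0.07, with 59.4% higher and 38% lower. Klf15 was too dim to be counted past a fold. Of the remaining 9, 3 reached 2-fold higher, beside 0.379% of the 11090 brighter genes, and 4 reached 1.5-fold higher, beside 3.64%. On the lower side 0 of the 9 reached 1.5-fold, beside 4.63% (1.65% at 2-fold), and 5 differed by under 1.5-fold. Since the rule used this contrast, nothing is read from these shares. The 10 genes spanned -0.37 to 1.63, and the central 95% of the 11090 genes spanned -0.81 to 0.65. Fbxo32, Trim63, Pdk4 and Zbtb16 lay above that central span and the other 5 of the 9 within it. Klf15 is not among the 11090 genes and was not placed against their span. With the added constant raised from 1 to 16, which damps dim genes, Pdk4, Fbxo32, Trim63 and Zbtb16 were 2.76-fold, 2.52-fold, 2.22-fold and 1.55-fold higher, and the median of the 10 was 0.25. In all, 42 genes reached 2-fold higher, and 13 did under that setting, Pdk4, Fbxo32 and Trim63 among them.

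**Figure D2:**
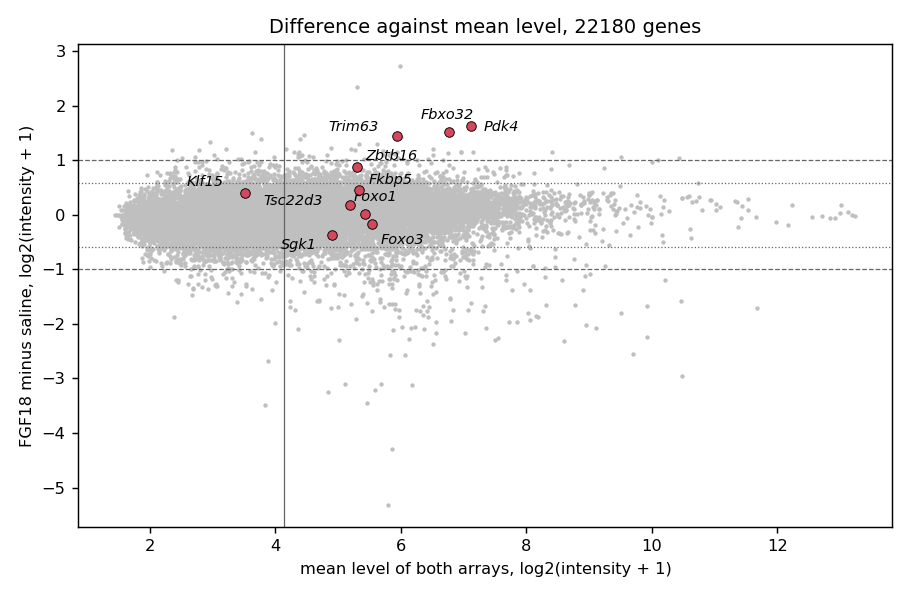
Log2(intensity + 1) difference, FGF18 minus saline, against the mean level of both arrays, for 22180 genes (grey) and the 10 genes (red). Dashed lines mark 2-fold, dotted lines 1.5-fold and the upright line the median level of 4.15. Pdk4, Fbxo32 and Trim63 lie above the upper 2-fold line, with Peg3 (1.43, grey) close to Trim63 (1.44). Zbtb16 lies between the upper 1.5-fold and 2-fold lines, and the other 6 lie between the dotted lines.

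The muscle ligases other than Fbxo32 and Trim63 did not share the size of the difference. Those 2 were picked because their differences were among the largest, so smaller ones in the rest follow from that choice. Of 18 measured genes of muscle ubiquitin ligases and their partners, 12 stood higher and 5 lower. Counts over this and the other lists take in all measured members, dim ones too. For direction, 49.5% of all genes were higher and 45.5% lower, and 59.4% and 38% of the brighter genes. The median difference of the ligase list was 0.06. Besides Fbxo32 and Trim63, 2 of the other 16 were at least 1.5-fold higher (2.61% of all genes measured, 3.64% of the brighter). On the lower side 1 passed 1.5-fold (4.15% of all, 4.63% of the brighter). None of these 3 genes reached 1.5-fold with a constant of 16, where Fbxo32 and Trim63 alone passed. Ubr2, a ligase of the N-end rule pathway, read 73.8 and 112 (1.51-fold), and Trim32, a ligase gene of thin filament turnover, 9.71 and 16.6, from below the saline median. Traf6, a ligase of cytokine signalling, read 58.4 and 35.7, or 1.62-fold lower. Fbxo40, a muscle F-box gene, read 36.9 and 38.0. The closest relatives of Trim63 were also near equal, with Trim54 at 0.01 and Trim55 at 0.04. Proteasome and ubiquitin genes, which carry out the breakdown that the ligases mark, had 24 of 33 measured members higher and 9 lower, with none at 1.5-fold. Their median was 0.09, beside 0.07 over the brighter genes, to which 32 of the 33 belong. Of those brighter genes 59.4% were higher. With the trend of difference on level subtracted the median of the 33 was 0.01. Psme4, an activator of the proteasome, was highest at 0.44 and Psmc2 lowest at -0.26.

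Several autophagy genes were higher, while their list was close to evenly split. Of 21 measured, 11 stood higher and 9 lower. The median was 0.14 (0.03 with the trend subtracted). Those at least 1.5-fold higher numbered 5, beside 2.61% of all genes and 3.64% of the brighter genes, to which 20 of the 21 belong. Retreg1, a receptor for autophagy of the endoplasmic reticulum, read 112 and 201 (1.79-fold), Map1lc3b, which coats the autophagosome, 47.9 and 81.3 (1.68-fold), and Bnip3, a receptor for autophagy of mitochondria, 41.2 and 65.2 (1.57-fold). The cargo adaptor gene Sqstm1 read 78.9 and 121 (1.52-fold), and Depp1, a FOXO-responsive gene, 8.74 and 18.1, from below the saline median. The lowest were Gabarapl2, a relative of Map1lc3b, at 80.9 and 58.4 (-0.46), the lysosomal protease gene Ctsd at -0.35, Atg12, whose product is conjugated to ATG5, at -0.32 and the protease gene Ctsl at -0.23. With a constant of 16, Map1lc3b and Retreg1 reached 1.5-fold, 2 of the 21, and with the trend subtracted 3 did.

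**Figure D3:**
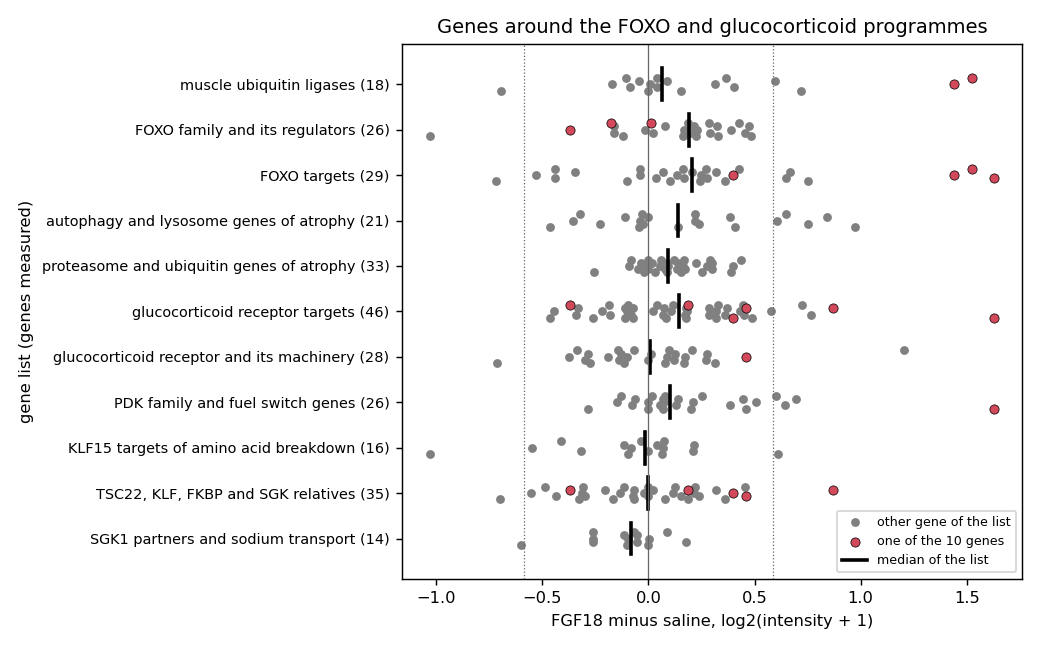
Log2(intensity + 1) difference, FGF18 minus saline, for every measured gene of 11 lists around the 10 genes, with the number of genes in brackets, the 10 genes in red, list medians as black bars and dotted lines at 1.5-fold. List medians lie between -0.08 and 0.20, while Pdk4, Fbxo32 and Trim63, picked for their large differences, lie beyond 1.4.

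Most FOXO targets were higher, as were most of the brighter genes. Of 29 measured genes 21 stood higher and 8 lower, beside 59.4% higher and 38% lower over the brighter genes. The median of the 29 was 0.20, beside 0.07 over the brighter genes, to which 24 of them belong, and 0.09 with the trend subtracted. Without the 4 of the list that are among the 10 genes, the median was 0.16. At least 1.5-fold higher were 3 of these 25, beside 2.61% of all genes and 3.64% of the brighter genes. These 3 were Map1lc3b and Bnip3, described above, and Eif4ebp1, an inhibitor of cap-dependent translation, which read 49.4 and 78.9 (1.59-fold). Map1lc3b alone of the 3 passed with a constant of 16, at 1.52-fold. The list also held lower genes, such as Gadd45b, a stress-response gene, at 69.5 and 47.7 (-0.53) and Bcl6, a repressor, at 57.3 and 44.8 (-0.35). Igfbp1, a liver gene of the insulin response, was the 1 gene of the list past 1.5-fold on the lower side, at 17.4 and 10.2, the latter below that array's median. Of 26 measured genes of the FOXO family and its regulators, including insulin and AKT pathway genes, 19 stood higher and 7 lower. Their median was 0.19, beside 0.07 over the brighter genes, to which 24 of them belong. None was 1.5-fold higher, beside 2.61% of all genes and 3.64% of the brighter genes. The 26 hold 3 of the 10 genes, Foxo1, Foxo3 and Sgk1. Irs2, the insulin receptor substrate gene that FOXO1 induces, read 17.8 and 24.3 (0.43). Mstn, which encodes myostatin, the secreted brake on muscle growth, was the 1 gene of that list past 1.5-fold in either direction, at 103 in saline and 49.9 after FGF18, or 2.04-fold lower (1.80-fold with a constant of 16).

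The wider set of glucocorticoid targets differed little. Of 46 measured genes 30 stood higher and 16 lower, and 39 of the 46 were among the brighter genes, of which 59.4% were higher. The median was 0.15, and 4 were at least 1.5-fold higher, beside 2.61% of all genes and 3.64% of the brighter genes. These were Pdk4, Zbtb16, Gpx3, which encodes a secreted glutathione peroxidase, at 36.2 and 62.2 (1.70-fold), and Galnt15, at 7.86 and 13.6, below the median of each array. The metallothionein genes Mt1 and Mt2, which steroids and metals induce, had differences of 0.45 and 0.58. Per1, a clock gene, was at 0.18 and Klf9, a Klf15 relative, at -0.07. The lowest were Metrnl, a secreted factor gene, at -0.46 and Errfi1, a feedback inhibitor of the EGF receptor, at -0.45. Without the 6 of the 10 genes it holds, the list's median was 0.09 over 40 genes and 2 were 1.5-fold higher. With a constant of 16 neither was, and Pdk4 and Zbtb16 were the 2 of the 46 that passed.

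Genes of the receptor side were evenly split. Nr3c1, the glucocorticoid receptor gene, read 74.4 and 75.1, a difference of 0.01. Nr3c2, the mineralocorticoid receptor gene, read 9.03 and 9.66, and Hsd11b1, whose enzyme activates the hormone within cells, 8.82 and 11.2, all below the array medians. Hsd11b2, whose enzyme inactivates it, read 17.8 and 16.5. Of 28 measured genes of the receptor, its chaperones, cofactors and local steroid synthesis, 14 stood higher and 14 lower. Their median was 0.01 (-0.05 with the trend subtracted). Ptges3, a co-chaperone gene of the receptor, read 5.16 and 13.2, below the median of each array. Pomc, the precursor gene of corticotropin, read 25.0 and 14.9, or 1.64-fold lower, and 1.33-fold lower with a constant of 16. Among relatives of the receptor targets, Tsc22d1 was at 0.36, Tsc22d2 at -0.49 and Sgk3 at 0.19. Klf3, a repressor gene, was at -0.70 and Klf4, a factor of epidermal differentiation, at -0.55. Partners of Sgk1 in sodium transport had 10 of 14 members lower and 3 higher, beside 45.5% and 49.5% of all genes. Their median was -0.08. The sodium channel subunit gene Scnn1a, at 40.3 and 26.3, was 1.51-fold lower (1.33-fold with a constant of 16).

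Genes of the switch from glucose to fat, the setting of Pdk4, had a median close to that of the brighter genes. Of 26 measured, 19 stood higher and 5 lower, and 22 were among the brighter genes, of which 59.4% were higher. The median was 0.10, beside 0.07, and 0.04 with the trend subtracted. Apart from Pdk4, 3 were at least 1.5-fold higher, beside 2.61% of all genes and 3.64% of the brighter genes. Acadl, an enzyme gene of fatty acid oxidation, read 157 and 254 (1.62-fold), Pdk2, the Pdk4 relative found in most tissues, 37.2 and 58.7 (1.56-fold), and Cd36, a fatty acid uptake gene, 119 and 181 (1.52-fold). Pdk3 was at -0.08, and Pdk1 lay below the median of both arrays. With a constant of 16 or with the trend subtracted, Pdk4 and Acadl were the 2 of the 26 genes that reached 1.5-fold. The list of KLF15 targets around amino acid breakdown did not follow, with 7 of 16 higher, 8 lower and a median of -0.02. Not all of its genes carry out breakdown, Mstn among them. Dbt, a subunit gene of branched-chain keto acid breakdown, was at 0.61, and the aminotransferase genes Gpt and Gpt2 were at -0.55 and -0.41. Mstn, given above, was the lowest of that list.

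Skeletal muscle markers as a group were centred near 0. Their 37 members, all measured, had 20 higher and 17 lower, with a median of 0.02 (-0.01 with the trend subtracted). Summed intensity over the 37 was 11810 in saline and 11316 after FGF18, and the slow myosin gene Myh7 was the 1 member below the median of both arrays. Acta1, the actin of muscle fibres, read 789 and 759, and Ckm, the muscle creatine kinase gene, 99.1 and 84.6. The fast myosin genes were mixed, with Myh1 at 0.36, Myh4 at -0.42 and Myh2 at -0.68. In whole skin, fewer cells of a type and less RNA per cell cannot be told apart.

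**Figure D4:**
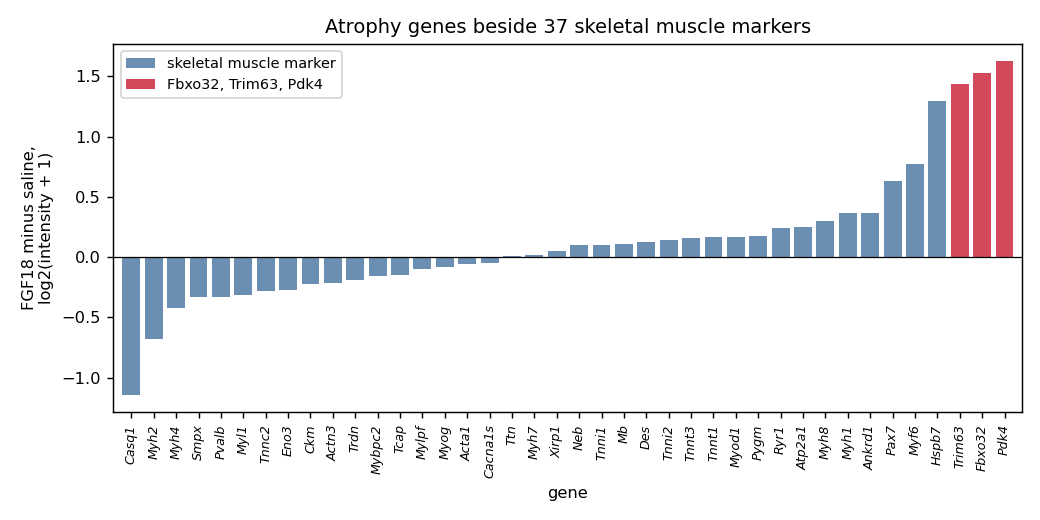
Log2(intensity + 1) difference, FGF18 minus saline, for 37 skeletal muscle markers (blue bars) and for Fbxo32, Trim63 and Pdk4 (red bars), sorted by value, 1 array per group. The markers run from Casq1 at -1.14 to Hspb7 at 1.30, and the 3 red bars, at 1.44, 1.52 and 1.63, stand above all of them. These 3 genes were picked because their differences were among the largest, so their place above the markers follows from that choice.

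A few of the 37 muscle markers passed 1.5-fold, 3 on the higher side and 2 on the lower. Among the brighter genes, to which 35 of the 37 belong, 3.64% and 4.63% did so. Whether the muscle counts exceed these shares was not tested. Hspb7, a small heat shock protein gene of muscle, read 30.3 and 76.0 and was 2.46-fold higher. Myf6, a myogenic factor gene of mature fibres, read 48.2 and 82.9 (1.71-fold), and Pax7, the satellite cell factor gene, 15.4 and 24.5 (1.55-fold). Casq1, the calcium store protein gene of fast fibres, read 468 and 211, or 2.21-fold lower, and Myh2 read 76.2 and 47.3, or 1.60-fold lower. With a constant of 16 the folds of Hspb7, Myf6 and Pax7 were 1.99, 1.54 and 1.29. Casq1 and Myh2 were then 2.13-fold and 1.46-fold lower.

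The neighbours of the 3 leading genes on their chromosomes were near equal, with 1 exception. In the order of protein-coding genes, the measured neighbours of Trim63 at or above the median level (Pdik1l, Grrp1, Slc30a2 and Extl1) lay between 0.00 and 0.16, and those of Pdk4 (Pon2 and Slc25a13) at 0.00 and -0.12. Beside Fbxo32, Wdyhv1 and Atad2 stood at 0.01 and 0.02. On its other side Klhl38, a kelch-like gene, read 18.9 in saline and 38.6 after FGF18, a difference of 0.99. Klhl38 was picked out after its value was seen.

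Markers of the cornifying layers of skin and hair differed by more than those of muscle did. The epidermal keratin gene Krt1 was bright on both arrays, at 4003 and 512, as the skin label implies. All 14 markers of differentiated keratinocytes were lower, with a summed intensity of 22535 in saline and 5831 after FGF18, and 10 of 11 inner root sheath markers were higher, with sums of 3283 and 6422. Macrophage markers had 10 of 11 higher (sums of 215 and 274, with Adgre1, C1qc, Cd163 and Fcgr1 below both array medians), and smooth muscle and pericyte markers 6 of 9 (553 and 615). Fibroblast markers had 6 of 10 lower (1202 and 1107) and endothelial markers 4 of 10 lower and 5 higher (160 and 151, with 5 below both array medians). Among fat markers 8 of 14 were lower and 6 higher, with sums of 952 and 1047. The part of these shifts in the values of the 10 genes was not tested. At 1.5-fold the counts over 11090 genes were 404 higher and 514 lower, 119 and 300 with a constant of 16, and 267 and 650 with the trend subtracted.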

How the data were processed

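Total RNA of 2 skin samples, 1 per group, was measured on 1 array each. Trizol extracts were biotin-labelled, per the labels. Expression Console of Affymetrix and RMA are the tools named in the submitters' processing notes. RMA corrects background, normalizes arrays to one distribution and summarises probes per transcript cluster. Tool versions and a build were not given in the sources used here. As deposited by the authors, each value is a linear-scale intensity, judged from their range (1.39 to 11488 in saline, 1.44 to 11532 after FGF18). Normalization to one distribution sets both arrays to the same overall brightness, so only relative differences can be read. The number of arrays limits the precision.

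Of 41345 clusters, 23521 had 1 gene symbol in the platform annotation, and these were averaged per symbol as log2(intensity + 1), giving 22180 genes. Clusters with several symbols (1814) or none (16010) were left out. The difference is FGF18 minus saline. For the array and the 10 genes, those with a mean at or above the median (4.15) were counted at 2-fold and 1.5-fold. List counts took all measured genes. Over 319 symbols with several clusters above that level, the SD of a cluster's difference within a symbol was 0.24, which covers probe sets and not animals. Alternatives were constants of 16 and 0, no filter or one at the 75th percentile, centring on the median, subtraction of a lowess trend (span 0.3), the brightest cluster, first symbols of clusters with several, and means in place of list medians. The steps were tested on simulated data. Gene lists, motifs and the 10 genes were chosen with earlier results of these data known. Genes that may be named are the 10, their relatives, 9 muscle genes (Acta1, Ckm, Casq1, Ryr1, Hspb7 and 4 myosins), those next to the 10 in the ranking, and the 4 highest and lowest of each list at or above the median level. The design allowed for log2 or linear values, and log2 was taken here. Eif4ebp1, Trim32, Trim54, Trim55, Fbxo40, Depp1, Galnt15, Mt1, Adipoq, Plin1, Ptges3, Igfbp1 and the neighbours were named after their values were seen. A gene below its array's median intensity gets no fold. Python 3.11.15, pandas 2.3.3 and statsmodels 0.14.6 were used.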

Additional observations from a re-analysis of the deposited data

How the results depend on the processing

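Under the reported setting and 8 alternatives Pdk4, Fbxo32 and Trim63 stayed at least 2-fold and Zbtb16 at least 1.5-fold higher. Their log2 differences were 1.47 to 1.64, 1.33 to 1.54, 1.15 to 1.46 and 0.63 to 0.89. Only the constants of 16 and 0 and the trend moved these values. The filters, centring on a median of 0.00, the brightest cluster and first symbols left them unchanged, as each gene has 1 cluster. Those alternatives are therefore no check on them. Fkbp5 (0.33 to 0.47) and Foxo3 (-0.28 to -0.13) kept their direction, while Foxo1 ran from -0.08 to 0.16. Tsc22d3 (0.10 to 0.19) and Sgk1 (-0.43 to -0.24) kept theirs under the alternatives that hold them, the filter at the 75th percentile leaving 7 of the 10 genes. A constant of 16 gave a median of 0.25 over the 10 genes and -1.82 over keratinocyte markers, and array counts of 13 and 111 at 2-fold and 119 and 300 at 1.5-fold, higher and lower. With no filter 920 genes were 1.5-fold lower. At the 75th percentile 27 were 2-fold higher, and 206 higher and 321 lower at 1.5-fold, and list medians were 0.23 for muscle ligases, 0.12 for receptor machinery, 0.21 for fuel switch genes, -0.085 for skeletal muscle, 0.20 for fat and 0.57 for macrophages, with no endothelial gene left. With the trend subtracted 267 genes were 1.5-fold higher, and medians were 0.093 for FOXO targets, 0.034 for autophagy, -2.11 for keratinocytes and 0.85 for inner root sheath. Means in place of medians gave 0.26 for muscle ligases, 0.23 for fuel switch genes, 0.80 for inner root sheath and 0.000899 for endothelium. The other 232 comparisons of array counts, counts of the 10 genes and medians moved by under 0.1 or within 1.5 times. Among the 1.5-fold counts within lists 35 moved further, 15 of them with a constant of 16, as did 11 differences of single genes among the 10, 7 of them with that constant. The causes were not tested. No paired analysis was possible because each group has 1 array. Leaving out a replicate was not possible for the same reason.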

Other observations

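The fat cell markers with the largest differences lay in both directions, with 6 of 14 markers higher and 8 lower. Pnpla2, which encodes the lipase that starts fat breakdown, read 38.5 in saline and 72.3 after FGF18 (1.86-fold higher), and Plin4, a lipid droplet coat gene, 29.0 and 60.0 (2.03-fold higher). Dgat2, the last enzyme gene of triglyceride synthesis, read 154 and 57.3 (2.65-fold lower), and Thrsp, a lipogenic gene, 30.2 and 14.2 (2.05-fold lower). Retn, which encodes resistin, was at -0.55 and Fabp4, the fatty acid carrier gene of fat cells, at 0.55. The broad fat cell genes Adipoq and Plin1 stood at -0.10 and -0.14. With a constant of 16, Pnpla2 and Plin4 were 1.62-fold and 1.69-fold higher, and Dgat2 and Thrsp 2.31-fold and 1.53-fold lower.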
